A study of Mus musculus with 4 samples.

Results

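Barcodes that carry the markers of pituitary stem cells were taken from single-cell RNA libraries of whole mouse pituitary glands. A barcode, which stands for 1 captured droplet and usually 1 cell, was kept when it had at least 500 detected genes and at most 20% mitochondrial transcripts. It was counted as a stem-marker barcode when it held at least 1 unique molecular identifier (UMI, a tag that marks 1 captured RNA molecule) of at least 3 of the 7 genes Sox2, Sox9, Cyp2f2, Aldh1a2, Mia, Lcn2 and Rbpms, and none of the macrophage gene C1qa or the endothelial gene Pecam1. Of 29899 kept barcodes, 1505 met this rule.

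Stem cells of the adult pituitary line the remnant of the gland's cleft and lie as small clusters among the hormone cells. They express the transcription factors Sox2 and Sox9, have epithelial junctions and keratins, and overlap with the folliculostellate cells, the non-endocrine network of the gland. They divide rarely, can give rise to hormone cells, signal to their neighbours through Wnt ligands, and are themselves controlled by the Notch and Hippo pathways.

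The study set mice with transgenic overexpression of p25 (p25OE) beside their wild-type (WT) littermates, at the ages of 14 and 40 weeks. The protein p25 is cut from p35, the product of Cdk5r1 that activates the kinase Cdk5. The strain of all 4 libraries is given as C57BL/6- B6;CBA-BiTg mice. The promoter that drives p25, the cells in which it is active and the number of animals behind a library are not given in the sources used here. Each genotype and age was 1 library, so the data hold no replicates, and differences are given without a p-value. Intervals are exact 95% intervals that cover counting error only.

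The stem-marker barcodes numbered 538 of 6579 kept barcodes in WT at 14 weeks, 532 of 7667 in p25OE at 14 weeks, 382 of 7927 in WT at 40 weeks and 53 of 7726 in p25OE at 40 weeks. These are shares of 8.18% (7.53 to 8.87), 6.94% (6.38 to 7.53), 4.82% (4.36 to 5.31) and 0.686% (0.514 to 0.896). The median depth of a stem-marker barcode was 11427, 5861, 4310 and 11937 UMIs in the same order, which is used throughout, and in total they held 8327433, 4922207, 2215792 and 686990 UMIs. A lower share of stem-marker barcodes and a higher number of other cells cannot be told apart. The shares also depend on the rule. For a UMI of C1qa or Pecam1 it left out 103, 110, 544 and 26 barcodes with at least 3 rule genes. C1qa had a UMI in 19.9%, 22.6%, 57.3% and 23.6% of all other kept barcodes. Without that condition the shares were 9.74%, 8.37%, 11.7% and 1.02%. No stem-marker barcode sequence was shared between libraries.

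Over the whole series, the kept barcodes had medians of 10704, 6375, 4985 and 6604 UMIs outside the stem-marker barcodes. Between 32 and 135 barcode sequences were shared by the 2 libraries of an age and at most 5 between ages. Age and library preparation cannot be told apart. Haemoglobin transcripts made up 1.92, 63.2, 5263 and 0 of 1000000 UMIs in the stem-marker barcodes and 15.7, 114, 4306 and 0.28 in all other kept barcodes.

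The rule genes themselves describe how the barcodes were chosen. Mia, which encodes a secreted protein, had a UMI in 95.5%, 88.7%, 97.1% and 81.1% of the stem-marker barcodes. Cyp2f2, a cytochrome P450, was found in 88.3%, 76.3%, 84.6% and 15.1%, and Rbpms, an RNA-binding protein, in 94.2%, 88.7%, 79.3% and 18.9%. The 3 libraries other than p25OE at 40 weeks thus held barcodes chosen largely on these genes. Sox2 was found in 81.8%, 83.5%, 41.1% and 86.8%, and Sox9 in 69.0%, 68.2%, 33.8% and 73.6%. Aldh1a2, which makes retinoic acid, was found in 69.7%, 63.7%, 37.4% and 7.5%, and the lipocalin Lcn2 in 53.3%, 44.0%, 50.5% and 49.1%. Of the 53 barcodes of p25OE at 40 weeks, 43 had just 3 of the 7 genes, while 159 barcodes of WT at 14 weeks had all 7.

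Markers that the rule did not use were checked next. Beside each level in the stem-marker barcodes stands its level in all other kept barcodes of the library. Here the levels are counts per 1000000 UMIs (CPM) with no scaling. Epcam, an epithelial adhesion molecule, was at 991, 1391, 640.4 and 728 in the stem-marker barcodes and at 574, 843, 391 and 909 in the others. Krt18, a keratin of simple epithelia, was at 302, 469.5, 380.5 and 322 against 67.1, 82.8, 86.8 and 237. Hes1, a transcription factor switched on by Notch, was at 121, 211, 120.5 and 59.7 against 6.47, 12.5, 14.9 and 7.61. Epcam, Krt18 and Hes1 were thus higher in the stem-marker barcodes of the 2 libraries of 14 weeks and of WT at 40 weeks. In p25OE at 40 weeks Epcam was not higher than in the other barcodes, while Hes1 was. That level of Hes1 came largely from few barcodes. It was 11.9 in the 43 barcodes with 3 rule genes, 672 in the 5 with 4 and 135 in the 5 with at least 5.

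Of 45 stem and folliculostellate markers outside the rule, 43, 41, 39 and 35 were measured, with at least 20 UMIs. At least 1.5-fold higher levels than in the other barcodes were found for 37, 33, 33 and 16 of them, with median ratios of 5.53, 4.42, 3.94 and 1.33. Of all genes measured, 37.3%, 27.2%, 26.8% and 12.3% were at least 1.5-fold higher, and since the barcodes were chosen on genes of the same cells, these ratios describe the barcodes and test nothing. Several textbook markers were nearly absent. S100b had a UMI in 0.6%, 0.9%, 2.4% and 3.8% of the stem-marker barcodes, and Gfra3 and Sox21 each in at most 0.2% in every library.

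The stem-marker barcodes were not pure. The 7 hormone genes of the gland took a median of 4.10%, 3.35%, 15% and 12.3% of a barcode's UMIs, and 140, 68, 129 and 17 barcodes had more than 20%. In barcodes with macrophage genes, which should hold no hormone transcripts of their own, the medians were 2.29%, 4.95%, 25.3% and 2.12%, at median depths of 3943, 3815, 3880 and 5282.5 UMIs. A core was therefore defined after these values were seen, with at least 5 of the 7 rule genes and at most 20% hormone transcripts. It held 306, 308, 125 and 5 barcodes, with median hormone shares of 1.98%, 2.19%, 10.1% and 2.05%. Each comparison below is given for all stem-marker barcodes and for the core. The doublet caller used left nearly all barcodes in place, so barcodes of 2 cells remain.

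**Figure D1:**
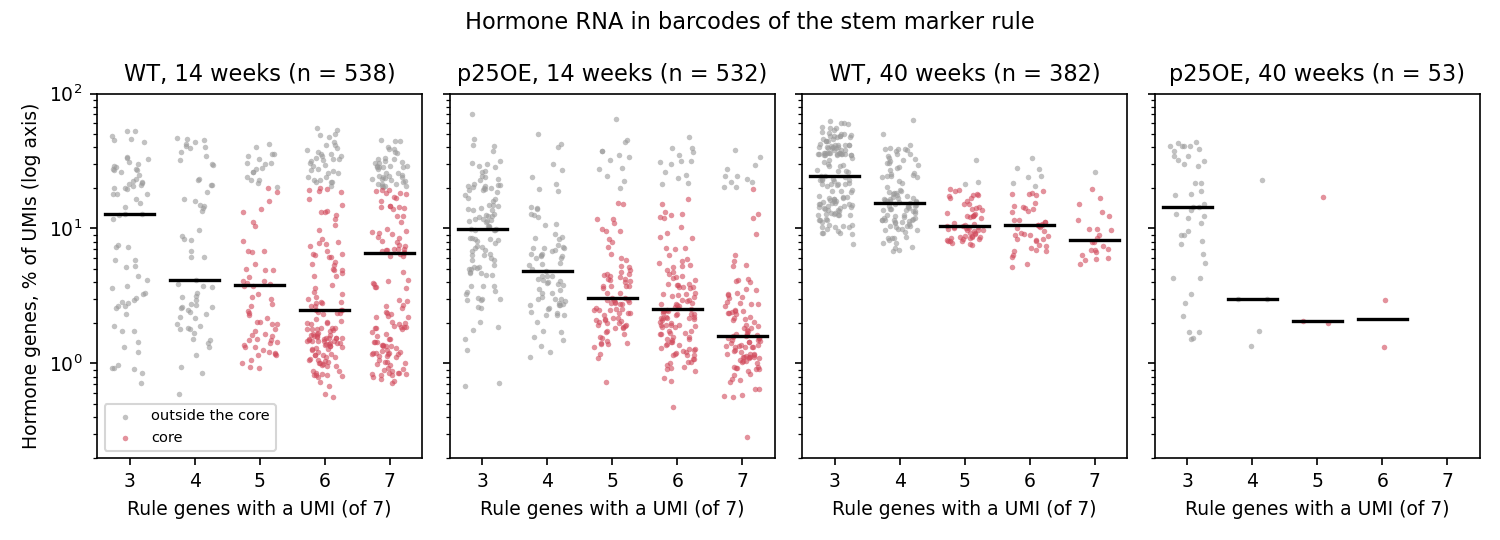
Each point is a stem-marker barcode, with the number of rule genes that had a UMI on the x axis and the percent of its UMIs in the 7 hormone genes on the y axis (log scale), 1 panel per library; red points are core barcodes, grey points the others and black bars medians. In p25OE at 40 weeks 43 of 53 barcodes sit at 3 rule genes, and in WT at 40 weeks no barcode lies below 5.23%.

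The threshold of 3 rule genes cut through a gradient. In WT at 14 weeks, barcodes with 1, 2, 3, 4 and at least 5 rule genes had a UMI of Hes1 in 5.07%, 14.8%, 27.8%, 42.9% and 72.7%, and their median hormone share was 26.9%, 21.8%, 12.7%, 4.13% and 3.61%. In p25OE at 14 weeks the shares with Hes1 were 4.38%, 12.8%, 26.2%, 45.6% and 76.3%, and in WT at 40 weeks 2.31%, 5.95%, 17.5%, 29.1% and 63.2%. By Hes1, the barcodes just inside the threshold lay nearer to those just outside it than to those with at least 5 rule genes.

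The 53 barcodes of p25OE at 40 weeks went against the stem cell label. Pcsk2, a protease of melanotrophs that cleaves the hormone precursor encoded by Pomc, had a UMI in 14.5%, 23.1%, 31.2% and 96.2% of the stem-marker barcodes. Pax7, the transcription factor that defines melanotrophs, was found in 5.4%, 13.2%, 4.5% and 60.4%. Pomc, at scaled levels of 15151, 31862, 33565 and 186265, was highest there. With each barcode thinned to 1000 UMIs, Pcsk2 was found in 3.18%, 10.3%, 10.2% and 75.5%, and in p25OE at 40 weeks in 53.9% of barcodes with macrophage genes and 79.0% of all other kept barcodes. By Pcsk2 these 53 barcodes thus resembled the rest of their library, and they were left out of all gene ratios, also because the core held 5 of them.

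In the core of WT at 14 weeks, the genes with the largest ratio to all other kept barcodes outside the rule included Cdh6, a cadherin, at 79.4-fold, and Gpha2, a glycoprotein hormone subunit, at 64.5-fold. The water channel Aqp4 was 55.9-fold higher, the endothelin receptor Ednrb and the Notch effector Hey2 were each 51.3-fold higher, and Id1, a target of BMP signalling, was 50.9-fold higher. For Gpha2 the ratio was 86.1 in p25OE at 14 weeks and 8.7 in WT at 40 weeks, and for Hey2 73.8 and 19.4. For both genes the ratio was smaller in WT at 40 weeks. There the other kept barcodes included 544 with at least 3 rule genes and a UMI of C1qa or Pecam1, against 103 in WT at 14 weeks. The barcodes were chosen on the same cells, so the ratios are a description, and these genes were picked from the leading ones after their values were seen.

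**Figure D2:**
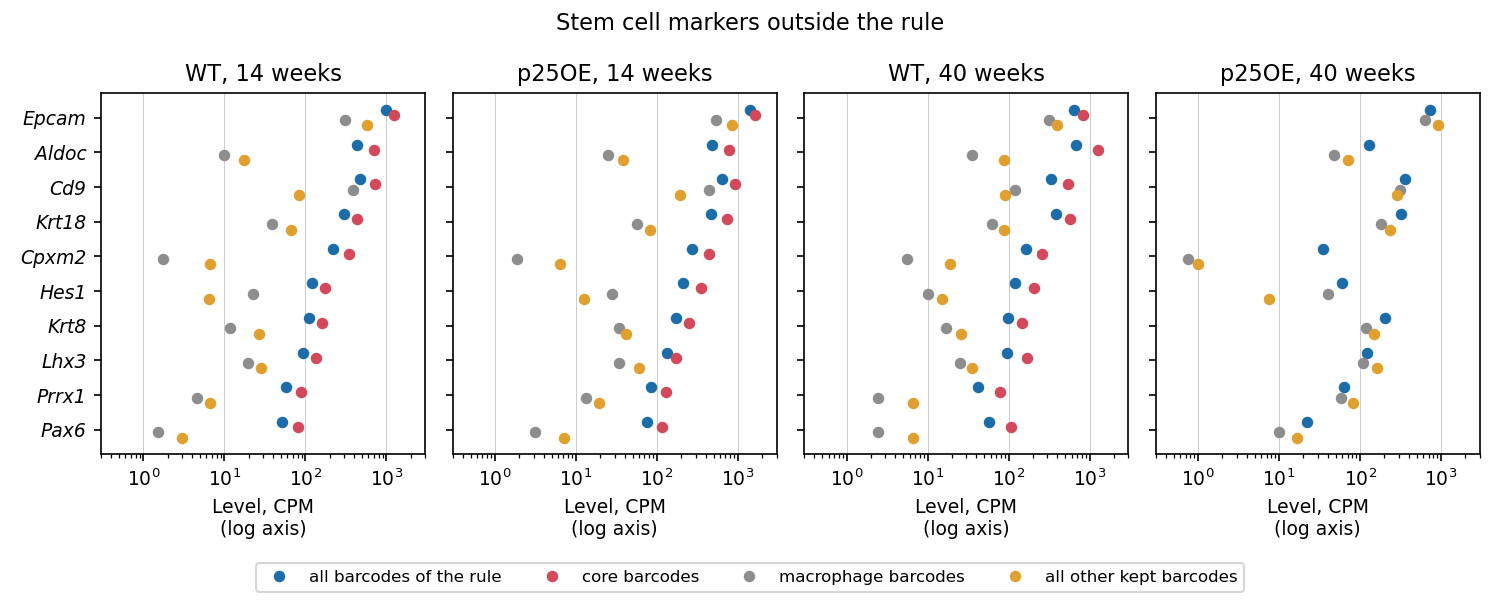
Levels of 10 markers outside the rule (CPM, log axis) in stem-marker barcodes, core barcodes, barcodes with macrophage genes and all other kept barcodes of the 4 libraries; no core is drawn for p25OE at 40 weeks. Hes1 sits at 121, 211 and 120.5 in the stem-marker barcodes of WT at 14 weeks, p25OE at 14 weeks and WT at 40 weeks, and between 6.47 and 14.9 in the other kept barcodes.

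The first comparison asked how stem-marker barcodes of p25OE mice differed from those of WT mice at 14 weeks. Interferon response genes and immediate early genes were higher in p25OE, and Nnat, Ccnd2 and Nes were lower, in the core as well. Genes of mitosis were higher over all stem-marker barcodes, but few barcodes carried them. At full depth, 1.96% of core barcodes in WT and 1.62% in p25OE had at least 2 of 10 mitosis genes. Of 13830 genes with at least 20 UMIs in the 2 libraries together, 11.8% were at least 1.5-fold higher and 9.24% at least 1.5-fold lower. From here on, levels are CPM scaled by the median ratio of the genes with at least 20 UMIs in each library compared. The median log2 ratio of all measured genes need not be 0 then. By age, below, it was −0.13, and −0.30 in the core. In the core the shares of 12420 genes were 9.9% and 11.2%. As counts these were 1638 genes higher and 1278 lower in the stem-marker barcodes, which became 2236 and 917 with CPM that were not scaled. The comparison of 14-week mice and that of WT mice by age below share the WT library of 14 weeks.

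Interferons bind receptors at the cell surface, and the transcription factors they activate switch on antiviral genes. Of 50 genes on the interferon list, 47 were measured, of which 33 were at least 1.5-fold higher in p25OE and 0 lower. Their median log2 ratio was 0.87. In the core, 31 of 43 were higher and 0 lower (median 0.89). Other barcodes shared this: in barcodes with macrophage genes 22 of 49 were higher (median 0.55), and in all other kept barcodes 39 of 49 (median 0.93). The medians of all genes in these sets were 0.02 and 0.01. Shares of all genes past 1.5-fold were counted only in stem-marker barcodes and their core, so counts in the other sets stand without them. The higher levels were therefore seen across the p25OE library of 14 weeks, and whether they come from the genotype, the animal or the library cannot be told apart.

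Isg15, a ubiquitin-like protein that is attached to other proteins, stood at 103, 376 and 155 in WT at 14 weeks, p25OE at 14 weeks and WT at 40 weeks. The ratio at 14 weeks was 3.65 (3.37 to 3.96), and it was 3.73 in the core, 2.94 in barcodes with macrophage genes and 4.19 in all other kept barcodes. After each barcode was thinned to 1000 UMIs, 11% of WT and 32.0% of p25OE stem-marker barcodes had an Isg15 UMI (47.4% and 64.5% at full depth), against 9.53% and 17.9% of barcodes with macrophage genes. Isg15 was thus found in more stem-marker barcodes of p25OE and not just at higher levels in a few. Ifi27l2a, another interferon-induced gene, stood at 143, 603 and 386 in WT at 14 weeks, p25OE at 14 weeks and WT at 40 weeks, a ratio of 4.21 (3.94 to 4.5) at 14 weeks. In barcodes with macrophage genes its ratio was 1.62, and in all other kept barcodes 3.34. Irf7, the factor that amplifies the interferon response, stood at 8.17, 32.0 and 10.8 and was 3.92-fold higher in p25OE.

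The Ifit proteins bind foreign RNA. Ifit3 stood at 27.5, 104 and 63.9, a ratio of 3.8 (3.25 to 4.45) at 14 weeks, and Ifit1 at 34.2, 91.2 and 49.2, a ratio of 2.67 (2.30 to 3.10). Ifit3b, a near copy of Ifit3 whose reads the counting could have split between them, was 2.87-fold higher. Rsad2, which blocks viral replication, stood at 10.3, 29.2 and 17.5, and Oas1a, a sensor of double-stranded RNA, at 4.56, 8.88 and 6.79. The GTPase Irgm1 was at 47.8 and 105 (2.20-fold) and Rtp4 at 47.9 and 89.8 (1.87-fold). The list did not move as a whole, since Ifi35 had a ratio of 0.98, Gbp2 of 0.98 and Gbp5 of 0.93.

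Interferon-stimulated genes are known for a promoter element that joins 2 copies of GAAA with any 2 bases between them. In 60-base stretches upstream of the start sites of 5 genes of the list, taken from RefSeq on GRCm38.p6 and written 5′ to 3′ on the gene's strand, matches to this pattern on either strand are in capitals. These 5 genes, whose levels are given above, were picked for display. Each stretch was taken from a promoter entry that holds a match, so the stretches do not test the pattern. Isg15 lies at chr4:156200856-156200915 (minus strand), Ifit1 at chr19:34640769-34640828 (plus), Ifit3 at chr19:34583365-34583424 (plus), Rsad2 at chr12:26456538-26456597 (minus) and Oas1a at chr5:120907526-120907585 (minus).
Isg15: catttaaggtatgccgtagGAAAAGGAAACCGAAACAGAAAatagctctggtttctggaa
Ifit1: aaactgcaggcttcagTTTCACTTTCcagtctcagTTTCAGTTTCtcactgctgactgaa
Ifit3: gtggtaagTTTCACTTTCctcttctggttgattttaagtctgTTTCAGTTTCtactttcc
Rsad2: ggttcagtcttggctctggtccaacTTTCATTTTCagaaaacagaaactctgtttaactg
Oas1a: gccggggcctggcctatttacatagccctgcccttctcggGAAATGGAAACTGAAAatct
In the 60 bases of Isg15, 3 overlapping matches form 1 run. The 60 bases shown for Ifit3 stand also before Ifit3b, at chr19:34607761-34607820 (plus).

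Of the 36 interferon genes with a RefSeq promoter entry, 19 (52.8%) had a match on either strand within 250 bases before the start. Among immediate early and heat shock genes it was 1 of 33 (3.03%), and among all 27025 genes with a RefSeq promoter entry 3.46% (2.98% of 32851 promoter windows). A match describes the sequence and is not shown to be a bound site.

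Genes of class I antigen presentation, which show peptides to T cells, were in part higher too. Of 27 measured genes of the list on MHC and antigen presentation, 8 were higher and 0 lower (median log2 ratio 0.28), and in the core 11 and 0 (0.46). In barcodes with macrophage genes 4 were higher and 7 lower. The non-classical H2-T23 stood at 59.9, 142 and 23.8 in WT at 14 weeks, p25OE at 14 weeks and WT at 40 weeks, 2.37-fold higher in p25OE, and H2-Q4 at 36.3, 89.6 and 23.8, 2.47-fold higher. The classical H2-K1, at 943, 1442 and 937, was 1.53-fold higher, against 1.02 in barcodes with macrophage genes and 1.12 in all other kept barcodes. Genes of this family are close copies of each other, so how reads were divided among them is uncertain.

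The number of interferon genes per barcode was higher too. With each barcode thinned to 1000 UMIs, the median stem-marker barcode held 2 of the list's genes in WT and 4 in p25OE, and 19.6% and 42.7% held at least 5. In the core the shares with at least 5 were 28.8% and 55.2%, in barcodes with macrophage genes 22.8% and 30.5%, and in all other kept barcodes 4.4% and 8.4%. In both genotypes at 14 weeks, stem-marker barcodes more often held at least 5 of these genes than all other kept barcodes. The latter include the barcodes with macrophage genes.

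**Figure D3:**
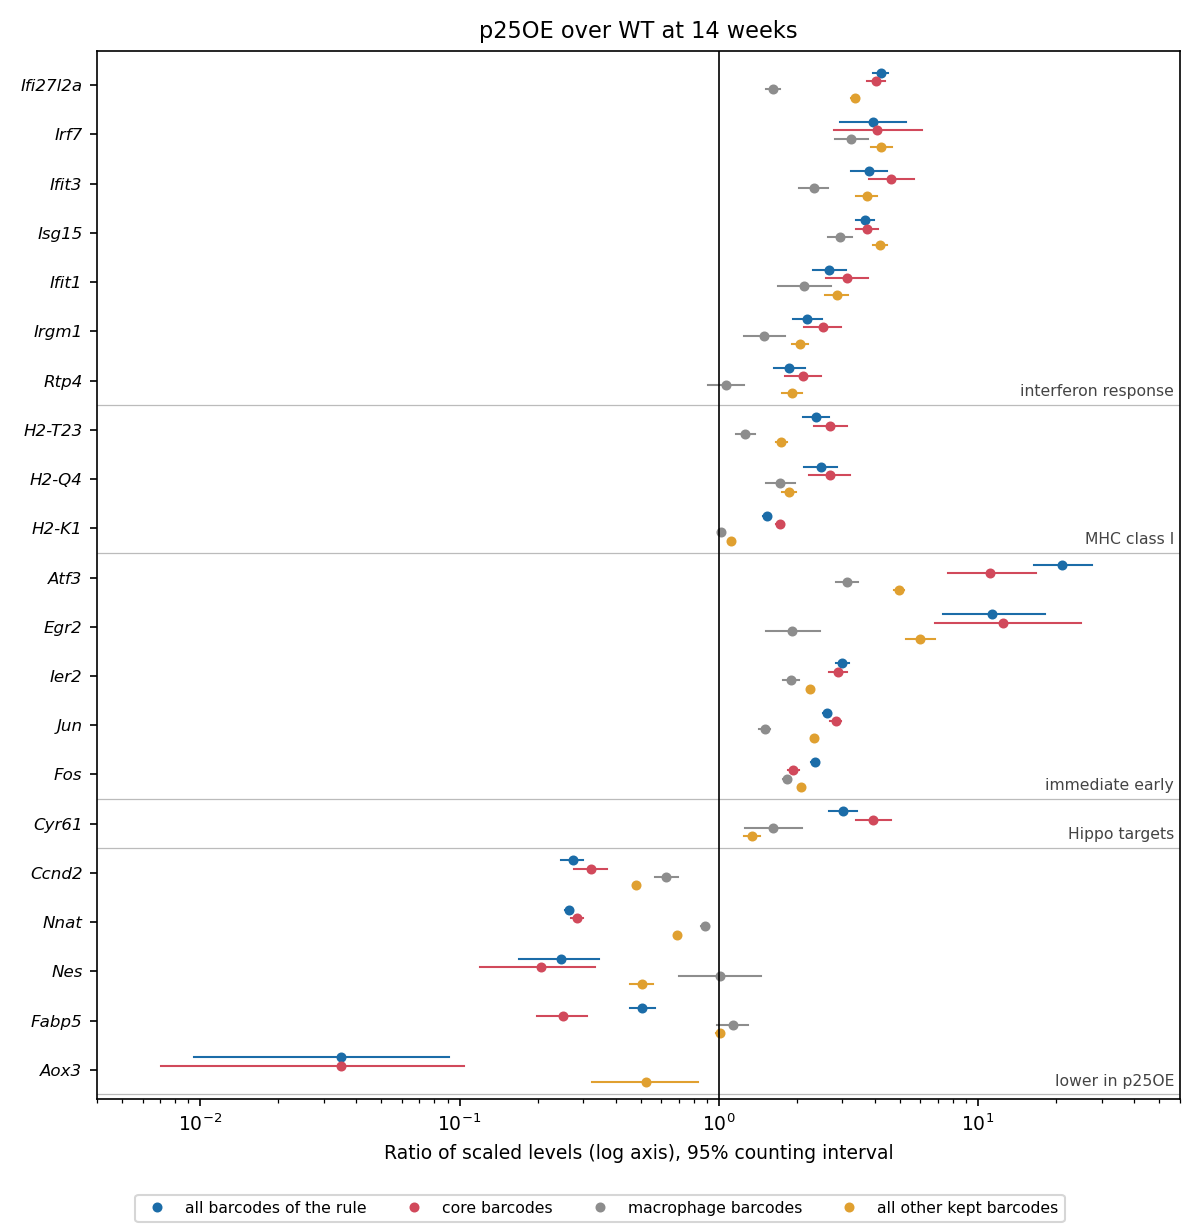
Ratio of p25OE to WT at 14 weeks (log axis) for 21 genes in stem-marker barcodes, core barcodes, barcodes with macrophage genes and all other kept barcodes, with exact 95% intervals that cover counting error only. Interferon and immediate early genes lie to the right of 1 in all 4 sets, while Ccnd2, Nnat, Nes, Fabp5 and Aox3 lie to the left in stem-marker and core barcodes.

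Immediate early genes are switched on within minutes by growth factors and by stress, dissociation of a tissue included. Of 39 measured immediate early and heat shock genes, 24 were at least 1.5-fold higher and 2 lower in p25OE (median log2 ratio 0.83). Atf3, a transcription factor of the stress response, stood at 8.17, 172 and 14.1 in WT at 14 weeks, p25OE at 14 weeks and WT at 40 weeks, a ratio of 21.1 (16.5 to 27.4), which was 11.1 in the core and 4.96 in all other kept barcodes. Egr2 stood at 2.88, 32.6 and 11.3 and was 11.3-fold higher.

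The abundant members showed smaller ratios. Jun was at 502, 1312 and 371, Fos at 683, 1602 and 632, and Ier2 at 211, 634 and 446, which are ratios of 2.62, 2.35 and 3 at 14 weeks. Egr1, at 889 and 1172, was 1.32-fold higher. The low end of the list held the chaperone genes Hsph1, at 85.3 and 52.0 (0.61-fold), and Hspe1, at 266 and 213 (0.80-fold). They were named for their low ratios, and the other chaperone genes are not given here. In the core 22 of 39 were higher and 2 lower, in barcodes with macrophage genes 16 and 0, and in all other kept barcodes 19 of 40 and 0. Socs3, which curbs cytokine signalling, stood at 98.5, 338 and 100, 3.43-fold higher in stem-marker barcodes, 2.14-fold in the core and 3.58-fold in all other kept barcodes.

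In the Hippo pathway the factors YAP and TAZ leave the cytoplasm when the kinases LATS are inactive and act with TEAD factors on target genes. Cyr61, such a target, stood at 47.7, 144 and 70.7, a ratio of 3.02 (2.67 to 3.42) and of 3.94 in the core, against 1.62 in barcodes with macrophage genes and 1.34 in all other kept barcodes. Ctgf, another target, was at 5.64 and 9.81 (1.74-fold), and 5.90-fold higher in the core. Tead3 was 2.42-fold higher and Wwtr1, which encodes TAZ, 1.59-fold, while Yap1 had a ratio of 0.99. Of 23 measured Hippo genes 6 were higher and 0 lower (median log2 ratio 0.20), and in all other kept barcodes 4 of 24 were higher and 3 lower. Cyr61 and Ctgf are themselves immediate early genes.

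Notch signalling holds stem cells back from differentiation. Its effector Hes1 had a ratio of 1.59 (1.46 to 1.74), or 1.9 in the core. Nrarp, a feedback inhibitor, stood at 13.9, 32.2 and 16.4 and was 2.31-fold higher, with 3.75-fold in all other kept barcodes. The receptors Notch2 and Notch3 had ratios of 0.88 and 0.91. Dlk1, an atypical ligand, stood at 1215, 525 and 1589, 0.43-fold. Dll3 was 6.57-fold higher in all stem-marker barcodes and 1.13-fold in the core, so this ligand was high outside the core. Of 32 measured Notch genes 9 were higher and 2 lower (median log2 ratio 0.09), and in the core 4 and 2 of 30.

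The Wnt, Hedgehog and BMP, EGF and FGF, and retinoic acid lists had members past 1.5-fold in both directions, and their median log2 ratios lay between −0.07 and 0.08. Over all genes 11.8% were higher and 9.24% lower. Of 39 Wnt genes 6 were higher and 5 lower, of 30 Hedgehog and BMP genes 4 and 6, of 25 EGF and FGF genes 4 and 2, and of 14 genes of retinoic acid synthesis and response 1 and 3. Some members had large ratios. The ligand Wnt10a was at 13.3 and 3.70 (0.28-fold, 0.14 in the core), the receptor Ror2 at 10.7 and 1.85 (0.17-fold, 0.32 in the core), and the Hedgehog effector Gli2 at 9.13 and 2.04 (0.22-fold). Fabp5, which carries retinoic acid to the nucleus, stood at 153, 77.4 and 60.5, a ratio of 0.51 that was 0.25 in the core and 1.01 in all other kept barcodes.

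Over all stem-marker barcodes, few stem markers differed between the genotypes. Of 40 measured stem markers outside the rule, 3 were higher and 3 lower (median log2 ratio 0.17), against 11.8% and 9.24% of all genes. In the core 8 of 38 were higher and 1 lower (median 0.31), against 9.9% and 11.2% of all genes. Krt18 was 1.42-fold higher and Krt8 1.43-fold, with 1.63 and 1.52 in the core, and Elf3, an epithelial transcription factor, 1.73-fold. Sox2, a rule gene, stood at 194 and 299.

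Several genes had lower ratios in stem-marker barcodes than in all other kept barcodes. Nnat, an imprinted gene of the endoplasmic reticulum, stood at 2437, 643 and 2658 in WT at 14 weeks, p25OE at 14 weeks and WT at 40 weeks, 0.26-fold in p25OE and 0.28-fold in the core, against 0.69 in all other kept barcodes. Ccnd2, cyclin D2, stood at 328, 89.6 and 389, 0.27-fold, with 0.32 in the core and 0.48 in all other kept barcodes. Nes, the intermediate filament nestin, stood at 29.4, 7.22 and 22.1, a ratio of 0.25 (0.17 to 0.35), with 0.21 in the core and 0.51 in all other kept barcodes. For all 3, WT at 40 weeks was near WT at 14 weeks.

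Aox3, an aldehyde oxidase, stood at 21.1, 0.74 and 2.83, a ratio of 0.04 (0.01 to 0.09) at 14 weeks that was 0.03 in the core and 0.52 in all other kept barcodes. It was low in both p25OE at 14 weeks and WT at 40 weeks. Aebp1 had a ratio of 0.21 and Greb1, an oestrogen-induced gene, of 0.24, with 0.15 and 0.14 in the core. The neuropeptide Gal stood at 207, 37.2 and 315 (0.18-fold, 0.04-fold in the core), but 3 barcodes held 34.3% of its UMIs in the core of WT at 14 weeks. Vip had 52.1% and Ccl4 100% in 3 barcodes of that core. Of the 15 genes named for the lowest ratios, 14 were also at least 1.5-fold lower in the core, 7 of 14 in barcodes with macrophage genes and 11 of 15 in all other kept barcodes.

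The genes with the highest ratios were high in other barcodes as well. Klk1, a kallikrein protease, stood at 4.08, 125 and 2.26, 30.6-fold higher in p25OE, 7.32-fold in the core and 52.1-fold in barcodes with macrophage genes. Lars2, the mitochondrial leucyl-tRNA synthetase, stood at 47.8, 204 and 9.62, 4.26-fold higher in stem-marker, 4.66-fold in macrophage and 4.28-fold in all other kept barcodes. All 15 genes named for the highest ratios were at least 1.5-fold higher in all other kept barcodes too. Markers of other pituitary cells moved as well. All 8 melanotroph markers were higher (median log2 ratio 2.19), 4 of 6 in the core (0.82). Among them, Pomc was 2.1-fold higher but 0.923-fold with at least 4 rule genes, 0.498-fold when barcodes were thinned before the rule and 0.934-fold in the core, and Pcsk2, at 3.52-fold, was 0.861-fold with that thinning. Of 15 markers of other hormone cells 2 were higher and 9 lower (median −1.01). Pou1f1, the factor of somatotrophs and lactotrophs, stood at 152 and 51.8. The part of these cells' RNA in the other ratios was not tested beyond the core.

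The study is titled for Cdk5 and Mcm2, so these were followed in the stem-marker barcodes. Cdk5 stood at 30.1, 31.5 and 45.8, a ratio of 1.04 at 14 weeks. Cdk5r1, the gene of p35 from which p25 is cut, stood at 8.65, 9.99 and 11.3 (1.16-fold), and Cdk5r2 at 11, 14.1 and 13.0 (1.27-fold). No ratio of these 3 genes reached 1.5-fold. Whether the transgene's transcript is counted under Cdk5r1 is not given in the sources used here.

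Mcm2, a subunit of the helicase that unwinds DNA for replication, stood at 4.80, 24.4 and 3.96, 5.09-fold higher in p25OE, 2.04-fold (1.04 to 4.07) in the core, 2.57-fold in barcodes with macrophage genes and 3.23-fold in all other kept barcodes. Mcm3, Mcm5 and Mcm6 were 7.30-fold, 3.73-fold and 3.15-fold higher, and 2.09-fold, 2.43-fold and 1.34-fold in the core. Of 24 measured genes of the MCM helicase and origin licensing 13 were higher and 1 lower, and in the core 7 of 20 and 2. S phase genes were higher in 24 of 33, and in 8 of 24 in the core. The ratios of these 4 named genes were thus smaller in the core.

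Genes of mitosis were higher in p25OE, with 34 of 37 measured genes higher, 0 lower and a median log2 ratio of 2.62, and 42 of 45 in all other kept barcodes (2.12). Mki67, a marker of dividing cells, stood at 3, 29.4 and 2.26, and Top2a, a topoisomerase of mitosis, at 2.16, 38.5 and 0.57. Few barcodes carried them. In the core 3 barcodes held 93.6% of the Mki67 UMIs and 95.6% of the Top2a UMIs of p25OE. With each barcode thinned to 1000 UMIs, at least 2 of 10 mitosis genes were found in 0 of 535 WT stem-marker barcodes, which allows up to 0.561% detected at this depth, and in 5 of 532 of p25OE, 0.94% (0.306 to 2.18). In the core it was 0 of 306 and 2 of 308. In all other kept barcodes the shares were 0.318% and 1.99%, and in barcodes with macrophage genes 0.284% and 1.23%. At full depth, 8 of 538 (1.49%) and 38 of 532 (7.14%) stem-marker barcodes met this criterion, against 0.96% and 8.19% of all other kept barcodes. In the core at full depth it was 6 of 306 (1.96%) in WT and 5 of 308 (1.62%) in p25OE, so the share was not higher in p25OE there. In WT at 40 weeks it was 0 of 382 thinned barcodes, which allows up to 0.785%. At this thinned depth few stem-marker barcodes of these 3 libraries were found to cycle. In p25OE at 14 weeks the interval of their share overlapped that of the other barcodes (1.68 to 2.35).

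The second comparison asked how stem-marker barcodes of WT mice at 40 weeks differed from those at 14 weeks. Genes of class II antigen presentation and of glutathione and metal defence were among those higher, and genes of the Hippo and Wnt pathways among those lower. Of 13204 genes measured, 15.4% were at least 1.5-fold higher and 26.3% at least 1.5-fold lower, and in the core 10.5% and 35.2% of 11752. The counts were 2027 genes higher and 3471 lower, and 860 and 5706 with CPM that were not scaled. Lower ratios were therefore common, and the libraries also differed in depth. The scaling rested on 8669 genes with at least 20 UMIs in each library, and on 5042 in the core. The part of this choice in the lower ratios was not tested.

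Class II molecules present peptides taken up from outside the cell and are typical of macrophages and B cells, though epithelia can make them. H2-Ab1 stood at 104 in WT at 14 weeks, 147 in p25OE at 14 weeks and 479 in WT at 40 weeks, a ratio by age of 4.60 (4.18 to 5.07), or 3.83 in the core. In barcodes with macrophage genes it was at 4510, 2574 and 3097, a ratio of 0.69, and in all other kept barcodes the ratio was 2.54. H2-Aa stood at 87.5, 98.5 and 330, 3.77-fold higher, and Cd74, their chaperone, at 472, 570 and 1551, 3.29-fold. B2m, the light chain of class I, stood at 260, 341 and 811, 3.12-fold higher. Thinned to 1000 UMIs, 15.1% of stem-marker barcodes at 14 weeks and 35.1% at 40 weeks had an H2-Ab1 UMI (56.5% and 73.8% at full depth), against 72.5% and 53.4% of barcodes with macrophage genes. Class II genes were thus higher at 40 weeks in stem-marker barcodes and lower in barcodes with macrophage genes. H2-Ab1 was also higher in all other kept barcodes. Barcodes with macrophage genes numbered 715 at 14 weeks and 1476 at 40 weeks, with median hormone shares of 2.29% and 25.3%. Their 12 macrophage markers summed to 21328 and 7254 CPM without scaling, so this set was not alike at the 2 ages. Whether these differences bear on their class II levels was not tested.

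Macrophage transcripts were higher in the same barcodes. As CPM without scaling, the 12 macrophage markers summed to 76.5, 53.8, 377 and 137 CPM in the stem-marker barcodes, and to 35.8, 53.4 and 292 in the core of the first 3 libraries, against 21328, 21471 and 7254 in barcodes with macrophage genes. C1qa itself was barred by the rule. C1qb was at 5.76 and 117 in WT at 14 and 40 weeks, with a UMI in 7.2% and 37.2% of the barcodes. Neutrophil markers summed to 5.40 and 195 CPM, again without scaling, and at scaled levels S100a8 was at 0.24 and 113, and the haemoglobin gene Hbb-bs at 1.32 and 3040. The rule also left out 103 barcodes at 14 weeks and 544 at 40 weeks for a UMI of C1qa or Pecam1. The part of macrophage RNA in the class II levels was not tested. Over the whole list of 27 genes on MHC and antigen presentation, 9 were higher and 5 lower (median log2 ratio 0.30), so the higher levels were those of some genes of the list. Of 44 interferon genes, 13 were higher and 10 lower (median 0.05).

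Of 34 measured genes of glutathione, detoxification and stress response, 18 were higher and 2 lower (median log2 ratio 0.61), and in the core 11 of 33 and 2 (0.39). All other kept barcodes had 21 of 35 higher and 2 lower (0.78), where the median of all genes was −0.04. The share of all genes past 1.5-fold was not counted in that set. Without the scaling the median in stem-marker barcodes was 0.29. Gsta3, a glutathione transferase, stood at 11.3, 22.4 and 70.2, a ratio by age of 6.22 (4.72 to 8.21), 5.68 in the core and 5.07 in all other kept barcodes. Gstm1 was at 519, 448 and 958 (1.85-fold), with 5.32-fold in all other kept barcodes, and the metallothionein Mt2 at 431, 568 and 1142 (2.65-fold). Gclc, which makes the first step of glutathione synthesis, was lower, at 162 and 87.7 (0.54-fold). Ftl1, the ferritin light chain, stood at 744, 642 and 2921 (3.93-fold).

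Of 39 measured stem markers outside the rule, 6 were higher and 5 lower (median −0.08), and in the core 4 and 6 of 37 (0.06). Over all genes 15.4% were higher and 26.3% lower, and in the core 10.5% and 35.2%. The number of higher stem markers was thus near the share of all genes, and the genes named below are single members. The rule gene Mia stood at 1001, 699 and 4234, which is a description since the rule used it, and its ratio by age in all other kept barcodes was 17.1. S100a1 stood at 125, 140 and 347 (2.77-fold), with 3.31-fold in all other kept barcodes. Aldoc, an aldolase of folliculostellate cells and astrocytes, stood at 437, 431 and 857 (1.96-fold), with 5.73-fold in all other kept barcodes. Sfrp5, a secreted Wnt antagonist, stood at 22.5, 27.0 and 74.1 (3.30-fold), and Fxyd1 at 44.0, 43.9 and 85.4 (1.94-fold). In all other kept barcodes Sfrp5 was 7.92-fold and Fxyd1 6.29-fold higher, so the ratios of these markers were larger in that set. At 40 weeks that set included 544 barcodes with at least 3 rule genes and a UMI of C1qa or Pecam1, against 103 at 14 weeks. Their part in these ratios was not tested. Krt18 was 1.58-fold higher and Epcam had a ratio of 0.81. Chil1, a chitinase-like protein, stood at 4.56, 3.52 and 20.9 (4.59-fold).

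**Figure D4:**
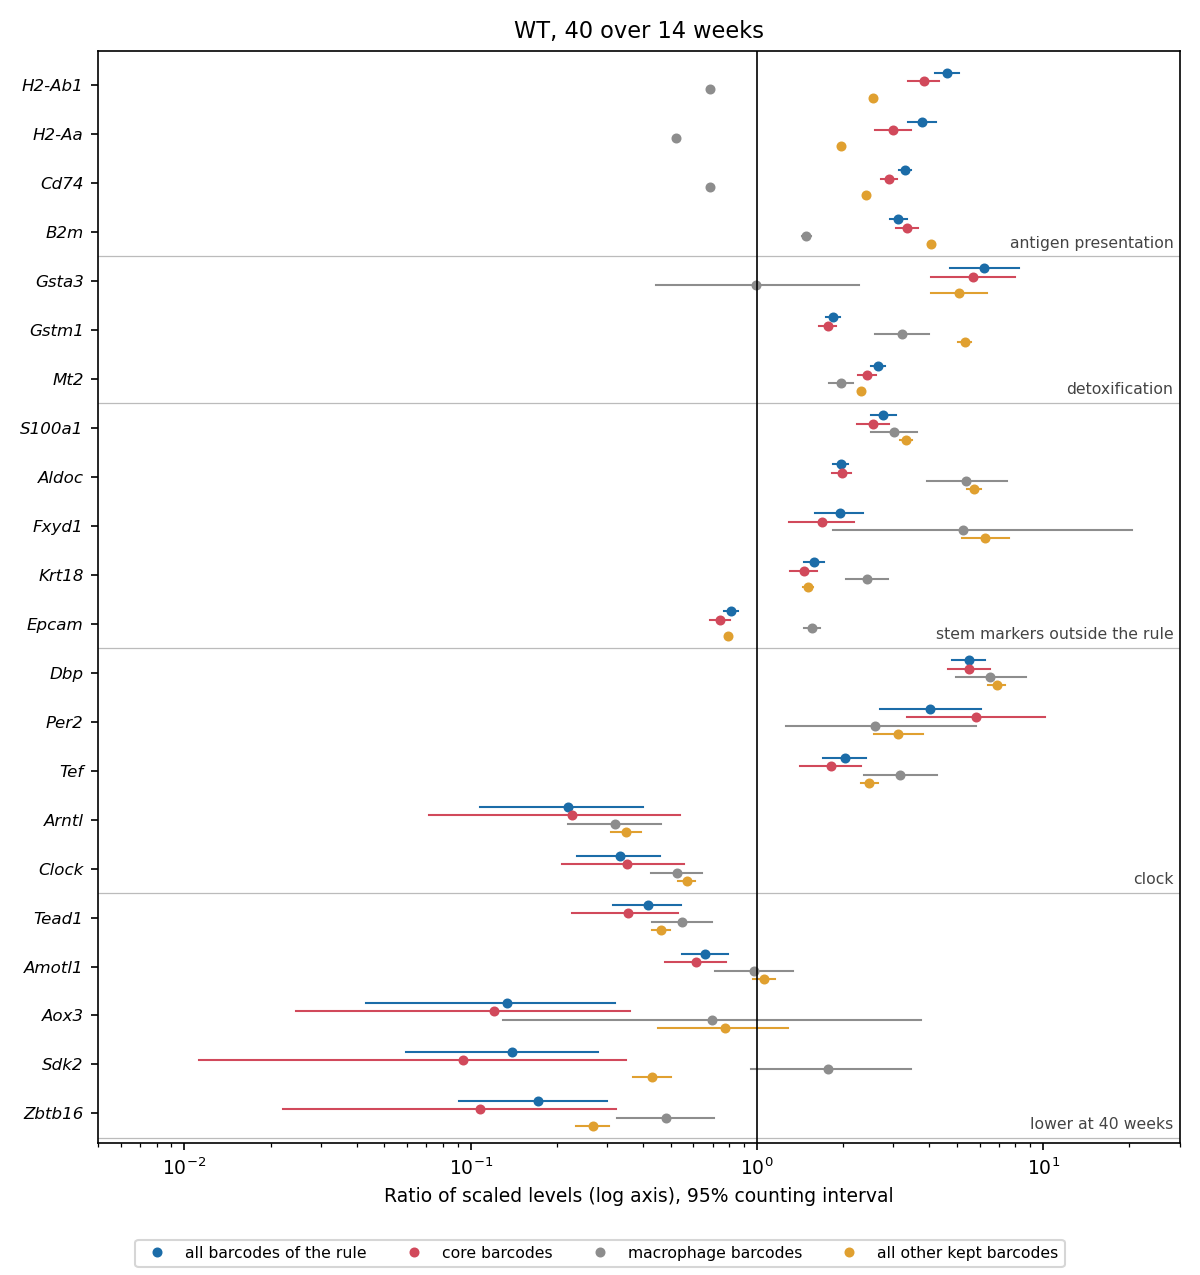
Ratio of WT at 40 weeks to WT at 14 weeks (log axis) for 22 genes in stem-marker barcodes, core barcodes, barcodes with macrophage genes and all other kept barcodes, with exact 95% intervals that cover counting error only. The class II genes H2-Ab1, H2-Aa and Cd74 lie to the right of 1 in stem-marker barcodes and to the left in barcodes with macrophage genes.

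Genes of signalling pathways were lower at 40 weeks more often than higher, as were all genes (15.4% higher and 26.3% lower, in the core 10.5% and 35.2%). Of 22 measured Hippo genes 0 were higher and 13 lower (median log2 ratio −0.81), and in the core 2 of 21 and 13 (−0.77). In all other kept barcodes 3 of 24 were higher and 6 lower (−0.20). Tead1 stood at 81.7, 78.7 and 33.9 in WT at 14 weeks, p25OE at 14 weeks and WT at 40 weeks (0.42-fold by age), with 0.46-fold in all other kept barcodes. The angiomotin-like Amotl1, a binding partner of YAP, was at 115 and 75.8 (0.66-fold), with 1.06 in all other kept barcodes, and the kinase Lats2 at 7.57 and 2.26 (0.30-fold). Of 36 Wnt genes 2 were higher and 16 lower (median −0.52), where the receptors Fzd8 and Fzd5 had ratios of 0.32 and 0.33, with 0.34 and 0.67 in the core. The Notch list was near the share of all genes, with 4 of 31 higher and 10 lower (−0.25), and in the core 5 and 9 of 28. Numb, an inhibitor of Notch, had a ratio of 0.27 against 0.33 in all other kept barcodes. Of 25 EGF and FGF genes 0 were higher and 11 lower (−0.49), where the receptor Erbb4 was at 18.1 and 6.22. The median of all genes was −0.13.

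Among the lowest ratios by age was that of Sdk2, an adhesion molecule. It stood at 32.4, 14.3 and 4.53, 0.14-fold by age and 0.43-fold in all other kept barcodes. Zbtb16, a glucocorticoid-induced transcription factor, stood at 42.6, 16.5 and 7.36 (0.17-fold), and Fkbp5, another glucocorticoid target, at 66.5, 56.3 and 20.9 (0.31-fold). Aox3 had a ratio of 0.13, against 0.77 in all other kept barcodes. Vegfa, which drives vessel growth, stood at 20.1 and 3.96 (0.20-fold), with 0.29-fold in all other kept barcodes. All 15 genes named for the lowest ratios were also lower in the core, and 14 of 15 in all other kept barcodes.

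Ribosomal and respiratory genes were higher at 40 weeks in stem-marker and other barcodes alike. Of 82 ribosomal protein genes 61 were higher and 0 lower in stem-marker barcodes (median 0.81), and 52 of 85 in all other kept barcodes (0.69). Nuclear genes of oxidative phosphorylation were higher in 54 of 78, and 9 of 13 mitochondrially encoded genes were lower. Phpt1 was 5.87-fold higher in stem-marker barcodes, 5.91-fold in macrophage and 4.77-fold in all other kept barcodes, and Lars2 was at 0.20, 0.15 and 0.16. Ratios of like size in every set of barcodes cannot be told apart from a difference between the 2 library preparations. Cdk5 was 1.52-fold higher, while Cdk5r1, Mcm2 and Mki67 had ratios of 1.31, 0.82 and 0.75.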

How the data were processed

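Whole pituitaries were digested with papain, red blood cells were lysed, and libraries were made with a droplet-based single-cell 3′ kit, per the labels' protocols. The deposited values are UMI counts per gene and barcode, whole numbers over 31053 features, per the file headers. Cell Ranger 3.0.2 and the genome mm10 are named in the submitters' processing notes, and Cell Ranger 3.0.1 in the headers of the files. The libraries held 8911, 15018, 12054 and 8125 barcodes and 95242353, 77275454, 53714895 and 60662506 UMIs.

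From these counts, UMIs were summed over the stem-marker barcodes, their core, barcodes with macrophage genes (at least 3 of C1qa, C1qb, C1qc, Csf1r and Cx3cr1, and fewer than 3 rule genes) and all kept barcodes outside the stem-marker barcodes. Levels are CPM scaled to WT at 14 weeks by the median of ratios over genes with at least 20 UMIs in each library. Gene ratios use genes with at least 20 UMIs in the 2 libraries together, with exact intervals from 2 Poisson counts. The threshold for a higher or lower gene was 1.5-fold. Shares carry Clopper-Pearson intervals, and a count of 0 allows up to 3 counts. The calculation was tested on simulated data. Scrublet in scanpy 1.11.5 marked 2, 4, 2 and 0 barcodes and so did not work. Doublets remain.

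The barcodes, gene lists and tests were chosen with earlier results of these data known. Named genes are the rule genes, Cdk5, Cdk5r1, Cdk5r2, Mcm2 and Mki67, per comparison the 15 highest and 15 lowest ratios, the 3 highest and 3 lowest genes of each list, and measured stem markers and markers of other cells. The 15 were taken among genes with at least 50 UMIs, a level of 20, an interval beyond 1.5-fold and a level in stem-marker barcodes of at least 0.5 of that in all other kept barcodes. Isg15, Ifit1, Rsad2, Oas1a, Jun, Fos, Egr1, Yap1, Wwtr1, Notch2, B2m, H2-K1, Gstm1, Mcm3, Mcm5, Mcm6, the genes of the circadian clock, and the leading genes of the core (Cdh6, Gpha2, Aqp4, Ednrb, Hey2, Id1) lie outside that rule or were chosen after their values were seen. The core, and an alternative in which C1qa and Pecam1 were not asked for, were likewise chosen after seeing the data. Promoter sequences are from RefSeq.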

Additional observations from a re-analysis of the deposited data

Results flagged for a closer look

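Of the 53 stem-marker barcodes of p25OE at 40 weeks, which entered no gene ratio, 96.2% had a UMI of Pcsk2, against 31.2% in WT at 40 weeks. This stood out as a signal in data that the comparisons did not use. In WT at 40 weeks, 544 barcodes with at least 3 rule genes were left out for a UMI of C1qa or Pecam1, against 103 in WT at 14 weeks. The part of doublets and of free RNA in either number was not tested.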

How the results depend on the processing

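No paired analysis was possible because each group was 1 library and the labels carry no replicate numbers. The share of stem-marker barcodes, 8.18%, 6.94%, 4.82% and 0.686% in the 4 libraries, moved with the rule, and under 2 alternatives its order changed: p25OE was above WT at 14 weeks with at most 10% hormone transcripts, and WT at 40 weeks was highest with C1qa and Pecam1 not asked for. With at least 4 rule genes it was 7.08%, 5.54%, 3.02% and 0.129%, after thinning to 1000 UMIs before the rule 4.46%, 4.36%, 3.67% and 0.133%, and without barcodes of high depth 5.91%, 5.1% and 3.76% in the first 3. With at most 10% hormone transcripts it was 5.17%, 5.32%, 1.06% and 0.311%, with at most 10% mitochondrial UMIs 5.9% and 5.33% at 14 weeks, and without Lcn2 4.06% and 0.44% at 40 weeks. The core was 4.65%, 4.02%, 1.58% and 0.0647%, and with C1qa and Pecam1 not asked for the share was 9.74%, 8.37%, 11.7% and 1.02%.

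The cycling share of p25OE at 14 weeks, 0.94%, was 0.303% with thinning before the rule and 0.256% without barcodes of high depth. For p25OE over WT, 1638 genes were higher and 1278 lower. Thinning gave 1076 higher, and a minimum of 1 UMI in each library 3538 higher and 2086 lower. For WT at 40 over 14 weeks, 2027 genes were higher and 3471 lower. The higher ones numbered 882 without hormone shares over 10%, 1238 in the core, 860 with plain CPM and 3606 with 1 UMI, and the lower ones 5706 with plain CPM. Plain CPM moved the median log2 ratio of all genes from 0.00 to 0.13 in p25OE over WT and from −0.13 to −0.46 by age.

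The median of the detoxification list by age, 0.61, was 0.55 with thinning, 0.55 without the highest doublet scores, 0.43 without high depth, 0.40 without hormone shares over 10%, 0.39 in the core, 0.57 with C1qa and Pecam1 not asked for, 0.29 with plain CPM, 0.47 as a mean of per-barcode CPM and 0.58 with 50 UMIs. That of ribosomal genes, 0.81, was 0.52 without hormone shares over 10% and 0.49 with plain CPM. Thinned to 2000 UMIs, the shares with Isg15 were 16.5% and 44.9% (WT and p25OE at 14 weeks) and with H2-Ab1 22% and 49.4% (WT at 14 and 40 weeks). The interferon and immediate early medians of p25OE over WT stayed past 1.5-fold under each alternative run. The causes were not tested. For single genes, Pomc in p25OE over WT was 2.1-fold and became 0.923 with at least 4 rule genes, 0.498 with thinning before the rule and 0.934 in the core. Pcsk2, at 3.52, was 0.861 with thinning, and Fzd5, at 0.597, was 1.12 in the core. By age, Atf3, at 1.73, was 0.737 with thinning, and Gal, at 1.52, was 0.937 with at least 4 rule genes, 0.514 without hormone shares over 10% and 0.687 in the core. A named gene was called when its ratio was at least 1.5-fold in either direction with an interval clear of 1. Of 2457 values of named genes under the alternatives, 2201 kept their status, called or not called. The call was lost in 124 and newly made in 123, and 9 values of called genes turned to the other side of 1. Turns of genes that were not called in the main setting were not counted.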

Other observations

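Genes of the circadian clock, which cycle through the day in most cells, differed by age in WT stem-marker barcodes and in the other barcodes alike. Dbp, an output factor of the clock, stood at 51.0 CPM in WT at 14 weeks, 18.5 in p25OE at 14 weeks and 281 in WT at 40 weeks. The ratio by age was 5.50 in stem-marker barcodes, 5.49 in the core, 6.51 in barcodes with macrophage genes and 6.87 in all other kept barcodes. Per2, a repressor of the clock, was 4.04-fold higher, Tef 2.03-fold and Ciart 2.97-fold. The activators were lower: Arntl stood at 28.5, 42.8 and 6.22, 0.22-fold by age, and Clock at 67.8, 65.7 and 22.6, 0.33-fold. Nr1d1, which represses Arntl, had a ratio of 0.49, and Per1 of 1.10. The hour at which the glands were taken is not given in the sources used here.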
